A study of Homo sapiens with 9 samples.

Results

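The genes described here are 40 genes of fatty acid oxidation, a list that takes in the enzymes of mitochondrial and peroxisomal beta-oxidation, the steps that activate and carry fatty acids, and the nuclear receptors that control them. It centres on ECI2 and its paralogue ECI1. ECI2 was singled out because earlier results of these arrays had shown how it differed between lines, so its levels are given as a description. It was part of the fit over all genes, but no p-value of it is given. It is left out of the counts of members by p-value, except in the closing section on the processing, where its calls are no test of it. For each gene the probe set with the highest mean over all 9 arrays was read, among probe sets that carry only that gene's symbol. Such a probe set was found for 38 of the 40 genes, and 34 of these passed a filter on low values and were tested among 14172 genes in all.

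Fatty acids enter the pathway once an acyl-CoA synthetase has joined them to coenzyme A. The carnitine shuttle then carries long chains into mitochondria, where each turn of beta-oxidation runs through a dehydrogenase, a hydratase, a second dehydrogenase and a thiolase, and releases acetyl-CoA. Double bonds in unsaturated fatty acids block this cycle until auxiliary enzymes move or remove them. ECI1 and ECI2 are enoyl-CoA isomerases that shift such a bond into the position the cycle can use, ECI1 in mitochondria and ECI2 in mitochondria and peroxisomes. PPARA and PPARD are nuclear receptors that switch on many genes of the pathway in response to fatty acids.

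The RNA came from TC-71, a cell line of Ewing sarcoma, a bone and soft-tissue tumour, and from lines derived from it that tolerate drugs against the IGF-1 receptor (IGF-1R), and 9 Affymetrix HG-U133 Plus 2 arrays were run on it. TC/AEW was selected with the kinase inhibitor NVP-AEW541 at up to 5 µM, TC/AVE with AVE1642, an antibody, at doses of at most 10 µg/ml, and TC/CP with another antibody, Figitumumab, each over 6 months of rising exposure, and parental TC-71 is the line they were set against. All were grown in Iscove medium with 10% serum, each resistant line stands for 1 selection, and the labels describe no TC-71 culture carried in parallel over those months. Each resistant line has 2 arrays, which are technical replicates per the labels and were averaged into 1 sample, and TC-71 has 3 samples, so that p-values measure the spread between these 6 samples, which for a single line comes from TC-71 alone.

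Levels are log2 values from robust multi-array averaging (RMA), and a difference of 1 is a 2-fold difference. A level under 5, the filter on low values, is treated as near background. The arrays fall into 3 sets by their labelled file names. One set holds TC-71 sample 1 alone, the next holds TC/AEW, TC/AVE and TC-71 sample 2, and the last holds TC/CP and TC-71 sample 3. The paired arrays of a line correlated at 0.996 to 0.998 and the TC-71 samples at 0.963 to 0.983, across genes, and genes are no independent replicates. TC-71 sample 1 was the lowest of the 3 TC-71 samples for 18 of the 34 tested members. Of 7 measured Ewing sarcoma markers, all were above 5 in all 6 samples and 6 reached 7 in all, with CD99 at a mean of 12.89. Blood, epithelial, liver, adipocyte, muscle and endothelial markers had 24 measured genes, and none reached 7 in all samples. At 5 in all 6 samples, 2 of 5 blood, 1 of 4 epithelial and 1 of 4 liver markers passed. So did 2 of 4 adipocyte, 0 of 4 muscle and 1 of 3 endothelial markers.

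The main feature of the pathway was in TC/AVE. ECI2 was near background there and near the TC-71 level in the other lines. The thiolase ACAA2 and CPT1C were lower in TC/AVE, and the entry enzymes ACSL1 and CPT1A and the receptor PPARA were higher. Not all of this was particular to TC/AVE. ACAA2 and CPT1C were also lower in TC/CP, by -1.14 and -0.54. By the probe sets used, ACSL1 and PPARA were above every TC-71 sample in every line. Of the 33 tested members other than ECI2, none passed an adjusted p of 0.05 over all genes in any of 6 comparisons with limma, where 0% of all genes passed in 5 comparisons and 0.0212% in the resistant lines in common. At an unadjusted p under 0.05 there were 1, 6 and 3 of these 33 members in TC/AEW, in TC/AVE and in TC/CP, which is 3.03%, 18.2% and 9.09% of them, beside 3.52%, 7.23% and 4.93% of all genes. The differences between lines were tested too, and at the same unadjusted p there were 2 of the 33 for TC/AEW against the antibody-selected lines, beside 1.81% of all genes, and 4 of the 33 for TC/AVE against TC/CP, beside 5.78% of all genes.

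Differences of at least 1 on the log2 scale from the TC-71 mean were found in 3 members in TC/AEW, beside 2.22% of all genes, in 7 members in TC/AVE, beside 3.68%, and in 2 members in TC/CP, beside 3.19%. The 7 in TC/AVE were ACSL1, ACSL4, CPT1A, CPT1C, ACAA2, PPARA and ECI2, which was chosen for its value there. The median of the 34 differences was 0.05, -0.04 and -0.09 in TC/AEW, in TC/AVE and in TC/CP, and that of all genes was 0.00, -0.02 and 0.00. The members lay on both sides of TC-71 in each line. Set only against the TC-71 sample of the same array set, TC/AVE again had 7 members at least 1 apart, with DECR1 at -1.31 in place of ACSL4 at 0.53, TC/CP had 2 (ACSL4 and ACAA2) and TC/AEW had 0.

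**Figure D1:**
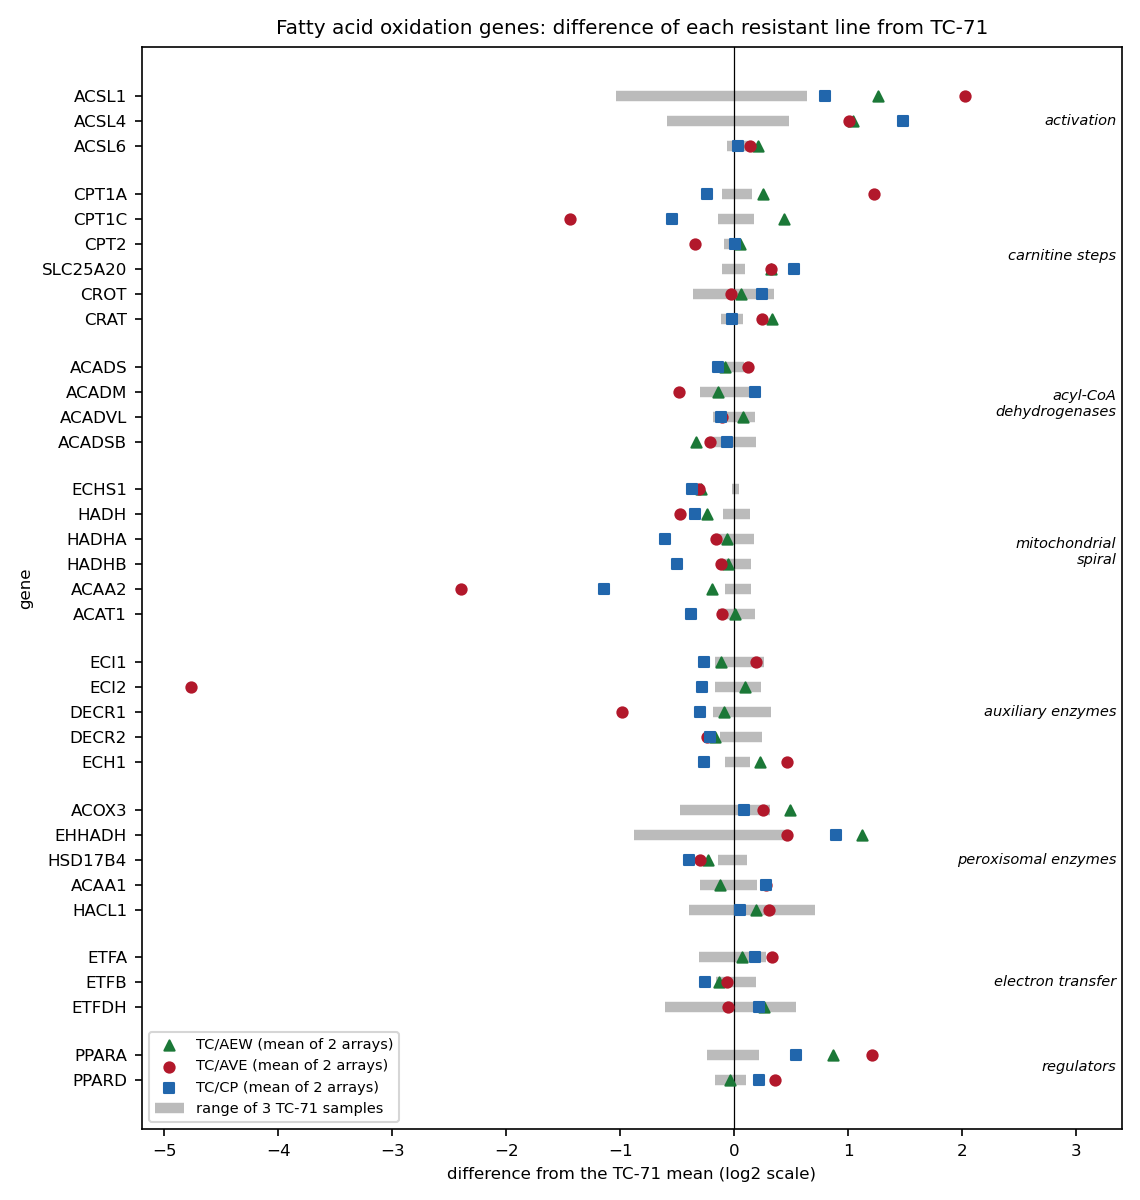
Difference of each resistant line (TC/AEW, TC/AVE, TC/CP; each the mean of 2 arrays) from the TC-71 mean, on the log2 scale, for the 34 tested members grouped by role, with a grey bar for the range of the 3 TC-71 samples. ECI2 in TC/AVE lies at -4.77, and ACAA2 lies at -2.39 in TC/AVE and -1.14 in TC/CP, while ACSL1 reaches 2.02 in TC/AVE.

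The DNA before the start sites of 4 members is shown because their values carry the account that follows: ECI2 for its loss of signal in TC/AVE, ECI1 as its paralogue, ACAA2 for its lower level in the antibody-selected lines, and HADHA because the window lies between it and HADHB, which starts 307 bases away on the opposite strand. Each is the 250 bases upstream of the first start that RefSeq lists for the gene (build GRCh38.p14), written 5′ to 3′ on the strand of the gene, at chr6:4135576-4135825 (minus strand), chr16:2251588-2251837 (minus), chr18:49813534-49813783 (minus) and chr2:26244633-26244882 (minus). Capitals mark GC boxes, GGGCGG or its reverse complement.
ECI2: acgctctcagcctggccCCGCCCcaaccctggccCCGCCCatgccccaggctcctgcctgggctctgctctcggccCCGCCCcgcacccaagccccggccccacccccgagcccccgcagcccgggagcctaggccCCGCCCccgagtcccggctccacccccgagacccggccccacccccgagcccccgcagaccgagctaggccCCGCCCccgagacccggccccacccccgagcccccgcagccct
ECI1: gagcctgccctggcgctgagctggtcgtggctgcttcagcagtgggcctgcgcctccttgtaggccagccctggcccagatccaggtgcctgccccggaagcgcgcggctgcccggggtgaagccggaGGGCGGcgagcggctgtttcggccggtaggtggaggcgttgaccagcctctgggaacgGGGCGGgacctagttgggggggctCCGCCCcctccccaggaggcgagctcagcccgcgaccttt
ACAA2: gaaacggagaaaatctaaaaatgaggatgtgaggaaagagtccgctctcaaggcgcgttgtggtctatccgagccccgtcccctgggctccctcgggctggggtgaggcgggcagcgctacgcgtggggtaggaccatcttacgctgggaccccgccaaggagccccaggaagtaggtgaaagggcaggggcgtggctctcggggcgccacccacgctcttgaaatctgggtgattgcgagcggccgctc
HADHA: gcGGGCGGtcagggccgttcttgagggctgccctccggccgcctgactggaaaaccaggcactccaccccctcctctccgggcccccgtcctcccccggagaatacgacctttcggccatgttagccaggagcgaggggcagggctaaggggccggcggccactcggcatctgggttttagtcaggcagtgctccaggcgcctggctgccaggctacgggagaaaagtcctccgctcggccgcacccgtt
The windows of ECI2, ECI1 and HADHA held 5, 3 and 1 GC boxes, and that of ACAA2 held none. The base composition of the ECI2 window was 81.6% G and C, against a median of 65.8% over the member windows and of 58% over all windows.

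Such windows were found for 31 of the 40 members, 12 of them with more than 1 start, 52 windows in all. On either strand, GGGCGG was in 63.5% of the member windows and in 42.6% of all 35116 windows of that length. CCAAT was in 21.2% of the member windows and 32% of all windows, and TATAAA in 1.92% and 10.7%. The direct repeat AGGTCANAGGTCA, the usual element for a PPAR with its partner receptor, was in 0 of the 52 member windows and in 0.0171% of all windows. Its repeated unit AGGTCA, which it overlaps, was in 5.77% and 12.1%. A match in letters is not a site, and the absence of one says only that these letters are not in this window.

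The auxiliary enzymes for unsaturated fatty acids hold the largest difference of the pathway. ECI2 read 8.78 and 9.05 in TC/AEW, 4.15 and 3.95 in TC/AVE, and 8.54 and 8.52 in TC/CP, against 8.65, 9.05 and 8.76 in TC-71. Both TC/AVE arrays were near background, and the arrays of TC/AEW and TC/CP were within or next to the TC-71 range. The difference in TC/AVE was -4.77, where the TC-71 samples had an SD of 0.21 (n = 3), which means at least 27.3-fold lower, a lower bound because the TC/AVE level is under 5. It was the lowest of all 14172 genes in TC/AVE and the second by size.

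On the TC/AVE arrays 27.7% and 24.3% of all probe sets read lower than ECI2, while on the TC-71 arrays 86.5%, 88.6% and 86.7% did. ECI2 is read by 1 probe set, so no other probe set bears on the value. In bulk RNA, fewer cells that carry the transcript and less of it per cell cannot be told apart. In the resistant lines in common the difference was -1.65, and without TC/AVE it was -0.10, so TC/AVE alone decides it.

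ECI1 stayed near the TC-71 level. It read 9.37 and 9.61 in TC/AEW, 9.76 and 9.82 in TC/AVE, and 9.32 and 9.36 in TC/CP, against 9.43, 9.86 and 9.51 in TC-71. Its level in TC/AVE was within the TC-71 range, with a difference of 0.19 ± 0.26 (SE, as for all differences that follow; adjusted p = 1.00 by limma). Within the array set that difference was -0.07. In the line where ECI2 was near background, ECI1 was thus well above it.

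The genes next to ECI2 were read to see how far the loss of signal reached along the chromosome, a choice made after its values were seen. Of the 12 nearest tested genes, 6 on each side in RefSeq order, differences in TC/AVE ran from -0.57 (RPP40) to 0.91 (TUBB2A). The nearest on either side were PRP4K, which stood at 9.70 in TC/AVE against 9.78, 9.81 and 9.64 in TC-71, and CDYL, at 8.59 against 8.68, 8.81 and 8.76. Their differences were -0.04 and -0.16. Their starts lie 114.3 and 570.6 kb from that of ECI2, and the farthest of the 12, LY86, lies 2453 kb away. How far the low reading reached within the nearest of these distances was not read. Neither neighbour shared the low reading of ECI2.

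**Figure D2:**
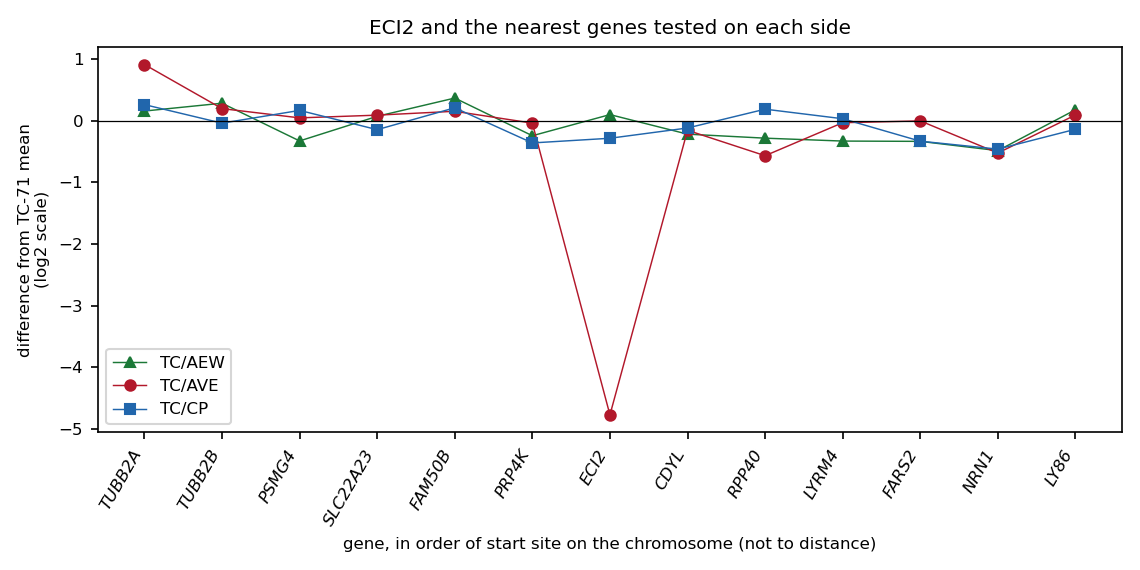
Difference of each resistant line from the TC-71 mean (log2 scale) for ECI2 and the 6 nearest tested genes on each side, in order of start site. In TC/AVE, ECI2 lies at -4.77 and the 12 neighbours between -0.57 and 0.91.

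The other auxiliary enzymes differed less from TC-71. DECR1, the mitochondrial dienoyl-CoA reductase, read 8.31 and 8.35 in TC/AVE, 9.18 and 9.28 in TC/AEW and 9.01 and 9.02 in TC/CP, against 9.13, 9.64 and 9.18 in TC-71. All of the lines except TC/AEW were below the lowest TC-71 sample, and TC/AVE by the most, with a difference of -0.99 ± 0.29 (adjusted p = 0.583). DECR2, its peroxisomal counterpart, averaged 8.70 in TC/AEW, 8.63 in TC/AVE and 8.66 in TC/CP, against 9.12, 8.74 and 8.75 in TC-71, with a difference of -0.21 ± 0.14 in the lines in common (adjusted p = 0.774). ECH1, a dienoyl-CoA isomerase, averaged 10.32 in TC/AEW, 10.55 in TC/AVE and 9.83 in TC/CP, against 10.09 ± 0.12 in TC-71 (SD, n = 3), so that TC/AVE and TC/CP lay on opposite sides of TC-71.

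Among the enzymes of the mitochondrial cycle after the first dehydrogenase, all 6 were lower than the TC-71 mean in TC/AVE and in TC/CP and 5 of 6 in TC/AEW, and 0 passed the test. ACAA2, the thiolase that cleaves off acetyl-CoA, read 9.67 and 9.75 in TC/AEW, 7.50 and 7.51 in TC/AVE, and 8.80 and 8.72 in TC/CP, against 9.82, 10.05 and 9.83 in TC-71. The antibody-selected lines were well below every TC-71 sample, and TC/AEW just below. The difference was -2.39 ± 0.22 in TC/AVE (5.26-fold lower, adjusted p = 0.164) and -1.14 ± 0.22 in TC/CP (2.20-fold lower, adjusted p = 0.520). Among all genes, ACAA2 ranked 25 from the lowest in TC/AVE.

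The size of the ACAA2 difference depended on the probe set. Its other probe sets gave -0.41 and -0.60 in TC/AVE and -0.47 and -0.40 in TC/CP, from TC-71 levels of 7.08 and 5.93. The direction was shared by all 3 probe sets in each line, and only the brightest showed a difference of 1 or more. Which transcripts each probe set reads was not analysed here.

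HADHA and HADHB, the subunits of the trifunctional protein that works on long chains, are divergent neighbours and had similar values. HADHA read 10.51 and 10.60 in TC/CP, 11.06 and 11.15 in TC/AEW and 10.99 and 11.03 in TC/AVE, against 11.17, 11.34 and 11.00 in TC-71. HADHB read 10.70 on both TC/CP arrays, 11.15 and 11.17 in TC/AEW and 11.11 and 11.08 in TC/AVE, against 11.17, 11.36 and 11.11 in TC-71. Only the TC/CP arrays were clearly below the TC-71 samples, by -0.61 ± 0.24 for HADHA and -0.51 ± 0.22 for HADHB (adjusted p = 0.998 for both). All 3 HADHA probe sets gave a lower level in TC/CP, from -0.82 to -0.35.

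ECHS1, the short-chain enoyl-CoA hydratase, had the tightest TC-71 values, at 11.20, 11.15 and 11.15, and averaged 10.87 in TC/AEW, 10.86 in TC/AVE and 10.79 in TC/CP. The lines did not overlap TC-71, with a difference of -0.32 ± 0.11 in common (adjusted p = 0.499). HADH, the hydroxyacyl-CoA dehydrogenase for shorter chains, averaged 9.65, 9.42 and 9.55 in TC/AEW, in TC/AVE and in TC/CP, against 9.80, 10.04 and 9.85 in TC-71, and its 3 probe sets were lower in each line. ACAT1, which handles acetoacetyl-CoA, averaged 10.86, 10.74 and 10.48 in TC/AEW, in TC/AVE and in TC/CP, against 10.85 ± 0.17 in TC-71, with only TC/CP below the TC-71 samples.

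**Figure D3:**
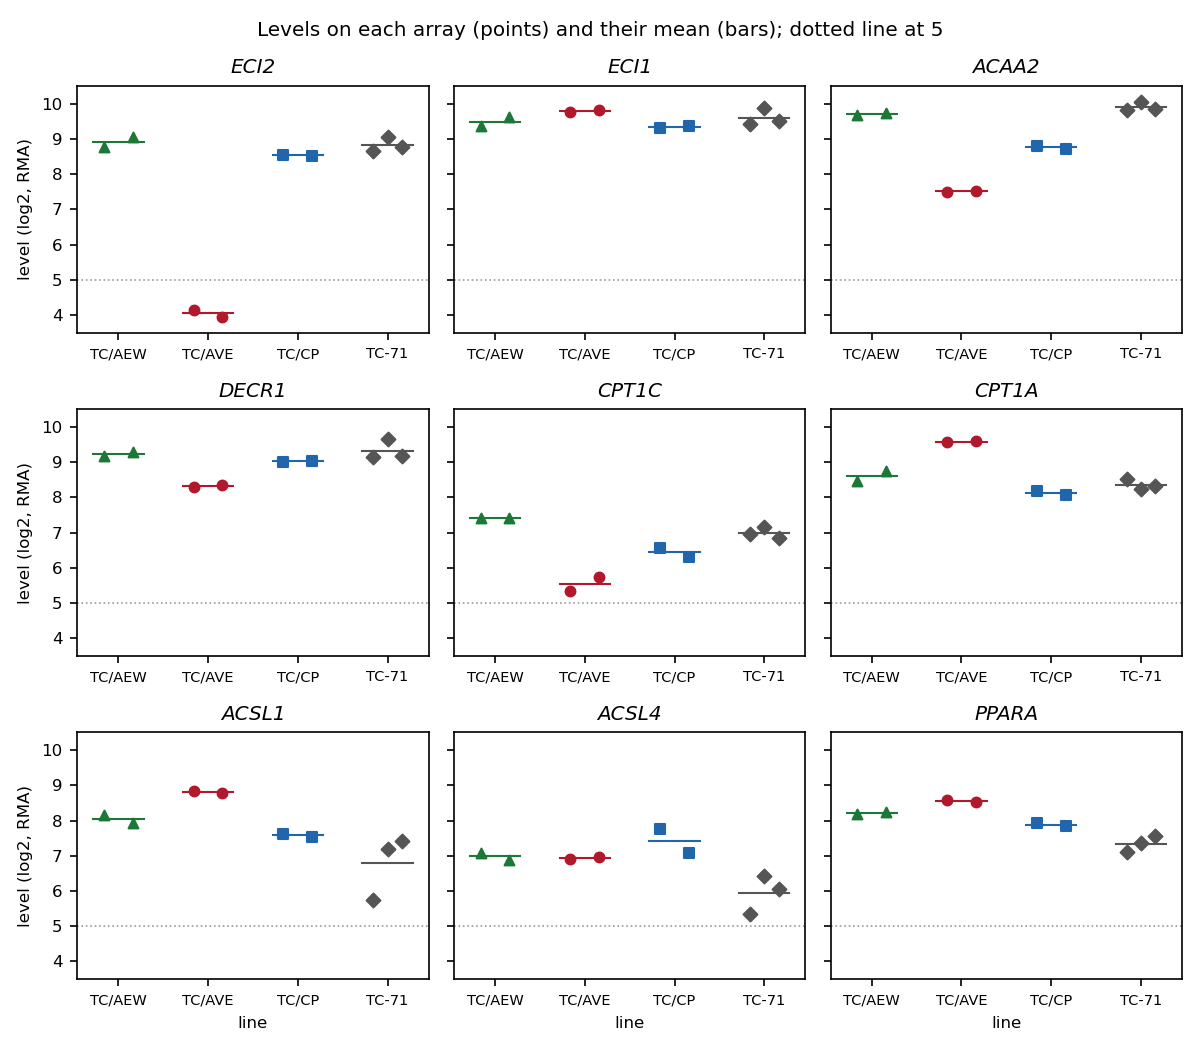
Level on each array (log2, RMA) for 9 members, with points for arrays and a bar for their mean, and a dotted line at 5. In TC/AVE, ECI2 reads 4.15 and 3.95 while ECI1 reads 9.76 and 9.82; for ACSL1 and ACSL4 the lowest TC-71 point is sample 1, at 5.75 and 5.35.

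At the entry to the pathway stand 5 synthetases, of which 3 were tested and 0 passed the test. ACSL1, a long-chain acyl-CoA synthetase, read 8.16 and 7.93 in TC/AEW, 8.83 and 8.78 in TC/AVE, and 7.62 and 7.54 in TC/CP, against 5.75, 7.18 and 7.42 in TC-71. Every line was above every TC-71 sample, and TC-71 sample 1 was far below the other parental samples. The difference in TC/AVE was 2.02 ± 0.69 (4.06-fold higher, adjusted p = 0.632), and 1.50 without TC-71 sample 1. In TC/AEW it was 1.26, and 0.74 without that sample, and in TC/CP it was 0.79, 0.27 without it and 0.15 within the array set. The other ACSL1 probe set, whose TC-71 samples were close together at 6.81 ± 0.14 (SD, n = 3), gave differences of 0.61, 1.51 and 0.07 in TC/AEW, in TC/AVE and in TC/CP.

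ACSL4, a synthetase that prefers arachidonic acid, read 7.09 and 6.88 in TC/AEW, 6.92 and 6.98 in TC/AVE, and 7.77 and 7.07 in TC/CP, against 5.35, 6.42 and 6.05 in TC-71. The lines did not overlap TC-71, with a difference of 1.18 ± 0.28 in common (adjusted p = 0.347), and 0.88 without TC-71 sample 1. The other ACSL4 probe sets gave smaller differences of the same sign, from 0.09 in TC/AVE to 0.63 in TC/CP. The arrays of TC/CP lay 0.70 apart, the widest gap between technical replicates of any member. ACSL6 was close to background in all samples, between 4.74 and 5.04, with TC/CP within the TC-71 range, and ACSL5 was under the filter on all arrays, between 3.73 and 4.17.

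The carnitine steps split in TC/AVE. CPT1A, which makes acylcarnitine at the outer mitochondrial membrane and sets the pace of entry, read 9.57 and 9.60 in TC/AVE, 8.47 and 8.75 in TC/AEW, and 8.17 and 8.07 in TC/CP, against 8.51, 8.24 and 8.32 in TC-71. TC/AVE was above every TC-71 sample by more than their range, at 1.23 ± 0.22 (2.34-fold higher, adjusted p = 0.394), and TC/CP was below them. The difference of TC/AVE from TC/CP was not called either (adjusted p = 0.462). Its 3 probe sets past the filter gave 0.70 to 1.23 in TC/AVE and -0.37 to -0.24 in TC/CP.

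CPT1C, the brain form of this enzyme, which resides in the endoplasmic reticulum, read 5.35 and 5.72 in TC/AVE, 7.42 and 7.40 in TC/AEW, and 6.57 and 6.29 in TC/CP, against 6.95, 7.15 and 6.84 in TC-71. The order was thus TC/AEW above TC-71 and both antibody-selected lines below, with TC/AVE at -1.44 ± 0.23 (2.71-fold lower, adjusted p = 0.312). CPT1A and CPT1C differed from TC-71 in opposite directions in TC/AVE. The muscle form CPT1B has no probe set of its own, shares its 2 with the read-through gene CHKB-CPT1B, and was not tested. They stood at 5.61 and 6.34 in TC/AVE, against 6.27 ± 0.18 and 6.74 ± 0.26 in TC-71.

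SLC25A20, the carrier that exchanges acylcarnitine across the inner membrane, averaged 7.78 in TC/AEW, 7.78 in TC/AVE and 7.98 in TC/CP, against 7.35, 7.47 and 7.55 in TC-71. The lines did not overlap TC-71, with a difference of 0.39 ± 0.13 in common (adjusted p = 0.491). CPT2, which returns the acyl group to coenzyme A, and the transferases CROT and CRAT, which act on medium and short chains, differed from TC-71 by -0.34 to 0.33 by the probe sets used. The other probe set of CRAT gave 0.70 in TC/AEW, against 0.33 by the one used, with TC-71 SDs of 0.39 and 0.11. For CROT, the other probe set past the filter gave -0.55, 0.24 and -0.59 in TC/AEW, in TC/AVE and in TC/CP, at levels close to background. The one used gave 0.06, -0.03 and 0.24, the opposite sign in each line. The other CPT2 probe set gave 0.35, 0.14 and 0.48, with a TC-71 SD of 0.84.

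The acyl-CoA dehydrogenases, which open each turn of the cycle, stayed near the TC-71 mean. ACADM, ACADS, ACADVL and ACADSB take medium, short, very long and branched chains. By the probe sets used they differed by -0.48 to 0.18 over all lines, with the lowest value from ACADM in TC/AVE. There ACADM was below every TC-71 sample, and its difference within the array set was -0.72. The other ACADSB probe set gave 0.25, 0.28 and 0.17 in TC/AEW, in TC/AVE and in TC/CP, with a TC-71 SD of 0.38. The one used gave -0.33, -0.21 and -0.07, the opposite sign in each line. ACADL, for long chains, was under the filter on all arrays, between 3.63 and 4.26. ETFA, ETFB and ETFDH, which pass the electrons of these dehydrogenases to the respiratory chain, differed by -0.26 to 0.33. Over these 7 genes no line average was more than 0.48 from the TC-71 mean by the probe sets used. Within the array set, ETFDH in TC/AVE was also farther off, at -0.59, with a TC-71 SD of 0.58.

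Peroxisomal enzymes were mixed. EHHADH, the peroxisomal bifunctional enzyme, averaged 5.70 in TC/AEW, 5.04 in TC/AVE and 5.47 in TC/CP, against 3.70, 5.03 and 5.01 in TC-71. The difference in common was 0.82 ± 0.38 (adjusted p = 0.629) and 0.38 without TC-71 sample 1, which was the only TC-71 sample under 5, and no fold is given. HSD17B4, the other bifunctional enzyme, averaged 8.83, 8.77 and 8.67 in TC/AEW, in TC/AVE and in TC/CP, against 9.10, 9.18 and 8.92 in TC-71. The averages did not overlap TC-71, but replicate 2 of TC/AEW read 8.95. The difference in common was -0.31 ± 0.13 (adjusted p = 0.589). ACOX3, an acyl-CoA oxidase for branched chains, the thiolase ACAA1 and HACL1, a lyase of alpha-oxidation, differed by -0.13 to 0.49 by the probe sets used. In TC/CP the other ACAA1 probe set gave -0.11, against 0.28 by the one used. The other ACOX3 probe set gave -0.04 there, against 0.08. In TC/AEW and in TC/AVE the probe sets of each of these genes shared their sign. ACOX2 was under the filter on all arrays, with its highest value at 4.54.

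Of the regulators, PPARA was higher in every line. It read 8.18 and 8.23 in TC/AEW, 8.58 and 8.51 in TC/AVE, and 7.92 and 7.83 in TC/CP, against 7.10, 7.36 and 7.55 in TC-71. No array of the lines overlapped TC-71. The difference was 0.87 ± 0.21 in common (adjusted p = 0.343), 1.21 ± 0.26 in TC/AVE (2.31-fold higher, adjusted p = 0.472), and 0.75 in common without TC-71 sample 1. All 6 PPARA probe sets past the filter were higher in each line, by 0.31 to 0.87 in TC/AEW, 0.53 to 1.21 in TC/AVE and 0.17 to 0.92 in TC/CP. PPARD averaged 8.24, 8.63 and 8.49 in TC/AEW, in TC/AVE and in TC/CP, against 8.27 ± 0.15 in TC-71. PPARGC1A, a coactivator of these receptors, was under the filter on all arrays, between 3.28 and 3.58.

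**Figure D4:**
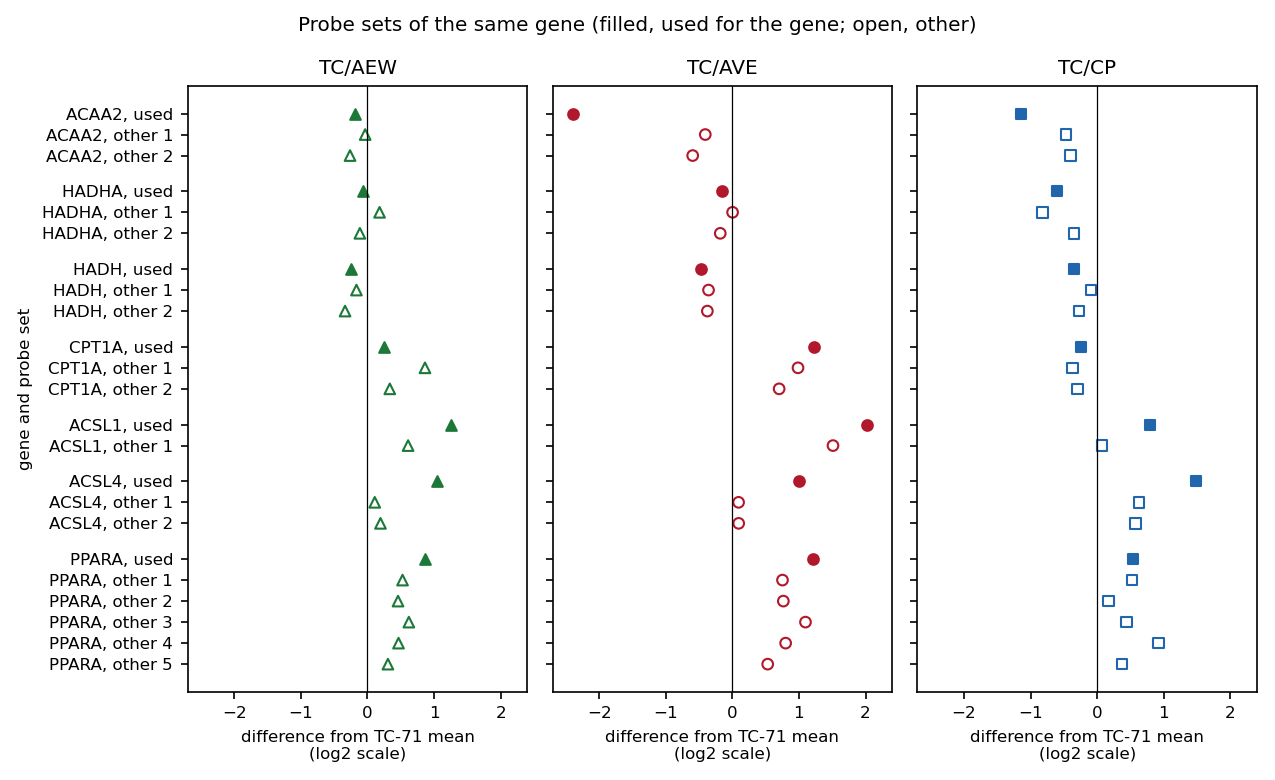
Difference of each line from the TC-71 mean (log2 scale) for every probe set past the filter of 7 members, filled for the probe set used for the gene and open for the others. The 6 PPARA probe sets lie above 0 in each line, while the ACAA2 probe sets in TC/AVE run from -2.39 to -0.41.

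In the resistant lines in common, 10 of the 34 members (29.4%) had all lines beyond all TC-71 samples, beside 13.9% of all genes. Of these, 5 were higher (ACSL1, ACSL4, SLC25A20, EHHADH and PPARA), beside 7.44% of all genes, and 5 were lower (ECHS1, HADH, ACAA2, DECR2 and HSD17B4), beside 6.41%. Each line is the mean of its arrays here, and a single array overlapped TC-71 for EHHADH (in TC/AVE) and for DECR2 and HSD17B4 (in TC/AEW). The counts also rest on the probe sets used. By some other probe sets past the filter, the lines overlapped TC-71 for ACSL1, ACSL4, PPARA, HADH and ACAA2. The members were chosen with earlier results known, so the shares are descriptions. At an unadjusted p under 0.05 there were 8 of the 33 members other than ECI2 in this comparison (24.2%), beside 8.39% of all genes. Time in culture cannot be told apart from resistance here.

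The wider pathway was read from 6 further lists with 101 genes, of which 75 were tested. None of the 75 passed the test in any comparison, and the median difference was 0.07 in TC/AEW, 0.05 in TC/AVE and -0.03 in TC/CP. In each line 2 of the 75 were at least 1 apart, beside 2.22%, 3.68% and 3.19% of all genes in TC/AEW, in TC/AVE and in TC/CP. These genes were SLC27A2 and PHYH in TC/AEW, and ACSS2 and NRIP1 in TC/AVE. In TC/CP they were SLC27A2 again and 1 gene of peroxisome membrane and biogenesis. The SLC27A2 difference was 1.34 in TC/AEW and 1.21 in TC/CP. Among 17 tested genes of uptake and activation, 6 had all lines above TC-71 and 1 had all below, beside 7.44% and 6.41% of all genes. One of the 6 was SLC27A2, a synthetase for very long chains, at 7.53, 6.88 and 7.41 in TC/AEW, in TC/AVE and in TC/CP, against 5.82, 6.55 and 6.21 in TC-71. ACSS2, which makes acetyl-CoA from acetate, stood at 9.10 in TC/AVE, against 7.88 ± 0.27 in TC-71.

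Among 17 tested genes of peroxisome membrane and biogenesis, 3 had all lines below TC-71 and 0 above, beside 6.41% and 7.44% of all genes. One of the 3 was PXMP2, a pore of the peroxisome membrane, at 8.88, 9.01 and 9.02 in TC/AEW, in TC/AVE and in TC/CP, against 9.44 ± 0.22 in TC-71. The 5 thioesterases, 24 other oxidation enzymes and 4 ketone body genes had medians between -0.11 and 0.19 in the lines. Among 8 nuclear receptors and coactivators, NRIP1, a corepressor of nuclear receptors that restrains oxidative genes, stood at 3.95 in TC/AVE, near background, at 7.34 in TC/AEW and at 7.77 in TC/CP, against 7.29, 8.47 and 7.97 in TC-71. Like ECI2 it was near background in TC/AVE alone, with a difference of -3.96 that is a lower bound on its size.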

How the data were processed

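The authors deposited log2 expression values per probe set, and the submitters' processing notes name affy and RMA, without versions. Total RNA (2 µg) was labelled with biotin, per the labels' protocols. From the table, 62 control probe sets were left out, and 41091 of the other 54613 carried 1 gene symbol in GEO's platform annotation, 1801 several and 11721 none. By gene identifier 41037 were found in RefSeq (GRCh38.p14) and 0 symbols changed. Each gene was read by its probe set with the highest mean, kept where at least 2 arrays reached 5, which left 14172 genes.

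The arrays of a line were averaged, and limma 3.58.1 in R 4.3.3 was fitted. Its tests are two-sided, and p-values were adjusted by Benjamini-Hochberg across the 14172 genes. The fits had 4 groups for single lines (2 residual and 3.01 prior degrees of freedom) and 2 groups for the lines in common (4 and 3.06). SE is limma's moderated standard error. The number of arrays limits the precision. Members and lists were chosen with earlier results of these data known. Every member is accounted for, and those with all lines beyond TC-71, or at least 1 apart in a line, are given by sample. The level of ACSL3, which has no probe set with its symbol alone in the annotation used, was not analysed here. Alternatives changed the filter, the choice of probe set, centring, the averaging of arrays, the prior variance, the array set as a block and the samples used.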

Additional observations from a re-analysis of the deposited data

How the results depend on the processing

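The spread in single-line tests comes from 3 TC-71 samples, and no resistant line has a biological replicate. Near-background levels bound only the size of a difference, and ECI2 rests on 1 probe set. Members called stayed at 0 in all 6 comparisons without any 1 replicate, with no filter or a filter at 6, with _x_at probe sets only where a gene has no other, with a trend in the prior variance, and, in the lines in common, with the array set as a block or without a line. Centring each array on its median called 2 members in TC/AVE (ECI2 and ACAA2, 29 genes in all) and 1 in TC/AVE against TC/CP (ECI2, 1 gene in all). ECI2 was singled out by these same values, so its calls, also where members are counted below, are no test of it. The cause was not tested. Centring moved the lines by 0.02 to 0.09 against TC-71.

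Counts of all genes moved more. In the lines in common 3 genes were called, and 0 with no filter, 6 with the filter at 6, 8 with centring, 6 with the trend, 0 with the array set as a fixed block, 10 with it as a random block, 0 without any 1 of the TC/AEW, TC/AVE or TC/CP lines, and 0 to 5 without any 1 replicate, where leaving out any TC-71 sample gave 0.

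With each of the 9 arrays as a sample, so that technical replicates pass for biological ones, the calls were 545 genes and 1 member in TC/AEW, 1871 and 9 in TC/AVE, 1013 and 5 in TC/CP, 238 and 2 in the lines in common, 288 and 3 between TC/AEW and the antibody-selected lines, and 1905 and 8 in TC/AVE against TC/CP. With the replicate number as a replicate block, the same comparisons gave 352 and 1, 1241 and 7, 1240 and 5, 37 and 0, 224 and 3, and 1831 and 8. The numbers are no pairing by design. Deviations of same-numbered arrays correlated at -0.151 to 0.201, which cannot show whether arrays were paired. With 2 arrays per line, both replicate numbers give the same value between lines. Within the array set, 28, 30 and 29 of 34 members kept their sign in TC/AEW, in TC/AVE and in TC/CP.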
